A study of Mus musculus with 6 samples.

Results

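Titin, the proteins of the M-band and the proteins of the Z-disc form the elastic and anchoring scaffold of the cardiac sarcomere, and 9 genes of this scaffold were compared between hearts with and without an activated human SRY transgene. The genes were Ttn, Mybpc3, Mybphl, Myom1, Myom2, Ldb3, Tcap, Csrp3 and Nebl, and every probe that carried one of these symbols on the array was taken. This gave 14 of 25697 probes and 9 of 18138 gene symbols. The rule selected by gene symbol, and the genes were listed with earlier results of these data known.

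In hSRY-ON pups, the Signalox-hSRY transgene had been recombined in the single-cell embryo by Ddx4-Cre protein carried over from the oocyte. This places a FLAG-tagged human SRY and EGFP under the broadly active CAG promoter, so that cardiomyocytes and all other cells of the heart can express it. The transgene was a single insertion at the H11 locus, the strain was FVB in the labels and FVB/N in the methods, and the pups were males at postnatal day 6. The methods describe the hSRY-OFF controls as carrying the same transgene without recombination, whereas the results section describes control littermates with Ddx4-Cre alone or with no transgene, so the genotype of the control hearts cannot be told from these sources. The hSRY-ON pups used for arrays were ones that had not inherited the Ddx4-Cre transgene itself. Total RNA from the hearts of 3 hSRY-ON and 3 hSRY-OFF pups was hybridized to 1 bead array each. Brightness of the beads of a probe measures its transcript, and it gives no account of the protein. In whole hearts, fewer cells of a type and less RNA per cell cannot be told apart.

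In a sarcomere, titin spans from the Z-disc, where thin filaments are anchored, to the M-band, where thick filaments are cross-linked, and it acts as a spring and as a ruler for assembly. At the Z-disc the ends of titin are joined by telethonin, the product of Tcap, which also binds the muscle LIM protein made from Csrp3, while Ldb3 encodes ZASP (Cypher), a PDZ-LIM protein that binds alpha-actinin. Myomesin, made from Myom1 and Myom2, cross-links titin and myosin at the M-band, and Mybpc3 encodes the cardiac myosin-binding protein C, which sits on the thick filament and also touches titin.

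Upstream sequences of the genes are given first, because they let the members be set beside motifs of muscle transcription factors and of SRY itself. RefSeq (GRCm38.p6) held promoter windows for 7 of the 9 genes, and none was matched for Tcap or Myom2. The 250 bases before the transcription start were searched on both strands for a MEF2-type element, the CArG box bound by SRF, the SRY/SOX core AACAAT, the GATA site AGATAA and the M-CAT site CATTCC. Of 32851 windows of this length, 3.2% held the MEF2-type element, 1.47% the CArG box, 9.42% the SRY/SOX core, 9.99% the GATA site and 12.6% the M-CAT site. The 7 genes had 12 windows, since 3 of them had 2 or more. Of these 12, 3 held the MEF2-type element, 4 the CArG box, 1 the SRY/SOX core, 4 the GATA site and 1 the M-CAT site. For the SRY/SOX core this is near the share of all windows. The windows of Ttn and Mybpc3 are shown for the MEF2-type element, those of Ldb3 and Myom1 for the CArG box, and that of Csrp3 as the only member window with the SRY/SOX core. Capitals mark the matched motif, and in Myom1 the first match in capitals is the GATA site on the opposite strand.
Ttn (chr2:76982548-76982797, minus strand): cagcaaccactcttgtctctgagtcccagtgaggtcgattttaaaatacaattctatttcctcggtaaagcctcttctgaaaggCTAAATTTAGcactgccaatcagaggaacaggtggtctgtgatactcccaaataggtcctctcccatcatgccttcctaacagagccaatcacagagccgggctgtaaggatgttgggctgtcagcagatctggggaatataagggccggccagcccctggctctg
Mybpc3 (chr2:91117894-91118143, plus strand): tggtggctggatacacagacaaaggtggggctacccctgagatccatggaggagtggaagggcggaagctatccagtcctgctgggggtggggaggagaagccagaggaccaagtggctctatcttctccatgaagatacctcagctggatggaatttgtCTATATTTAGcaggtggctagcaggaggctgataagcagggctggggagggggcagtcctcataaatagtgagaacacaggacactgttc
Ldb3 (chr14:34588682-34588931, minus strand): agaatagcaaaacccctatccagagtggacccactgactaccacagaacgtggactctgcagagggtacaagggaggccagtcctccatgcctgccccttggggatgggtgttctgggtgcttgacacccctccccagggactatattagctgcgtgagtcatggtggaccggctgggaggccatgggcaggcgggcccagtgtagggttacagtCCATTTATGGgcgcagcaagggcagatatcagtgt
Myom1 (chr17:71019307-71019556, plus strand): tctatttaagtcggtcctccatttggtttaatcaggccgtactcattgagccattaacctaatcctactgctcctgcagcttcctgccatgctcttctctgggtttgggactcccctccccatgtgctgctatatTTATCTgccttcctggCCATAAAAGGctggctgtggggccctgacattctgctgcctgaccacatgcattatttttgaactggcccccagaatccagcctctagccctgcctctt
Csrp3 (chr7:48848052-48848301, minus strand): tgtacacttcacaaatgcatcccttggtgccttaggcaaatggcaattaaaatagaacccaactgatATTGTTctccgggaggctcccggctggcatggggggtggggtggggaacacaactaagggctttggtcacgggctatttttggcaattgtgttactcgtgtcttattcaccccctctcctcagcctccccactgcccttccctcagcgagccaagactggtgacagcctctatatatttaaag
Counted back from the start site, the MEF2-type element began 166 bases upstream in Ttn and 90 bases upstream in Mybpc3. The CArG box began 35 bases upstream in Ldb3 and 99 bases upstream in Myom1, and the SRY/SOX core, on the opposite strand, began 183 bases upstream in Csrp3. Another start site of Ldb3 also held a MEF2-type element, Nebl windows held a CArG box, a GATA site and an M-CAT site, and Mybphl held a GATA site. A match of letters describes the window and does not show that a factor binds there.

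Of the 14 probes, 12 probes of 7 genes were above background on all 6 arrays and were tested. The single probe of Myom2 and the single probe of Nebl, which encodes nebulette of the cardiac Z-disc, were detected on none of the 6 arrays and were not well above background, so no fold is given for them. Their levels are therefore unknown rather than absent. In hSRY-ON hearts, 6 of the 12 tested probes were down-regulated and 0 were up-regulated at an adjusted p-value under 0.05 in limma, against 13.7% and 13.8% of all 12970 tested probes (27.5% in either direction). The 6 probes belonged to 4 genes, Tcap, Ldb3, Csrp3 and Mybpc3. All hSRY-ON hearts lay below all hSRY-OFF hearts in 8 of the 12 probes, and this was so for 21.6% of all tested probes. The median log2 fold change of the 12 probes was -0.40, beside -0.00 for all tested probes. The size of the change differed widely between the genes, from 11.7% of the control level in Tcap to 111% in Mybphl.

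**Figure D1:**
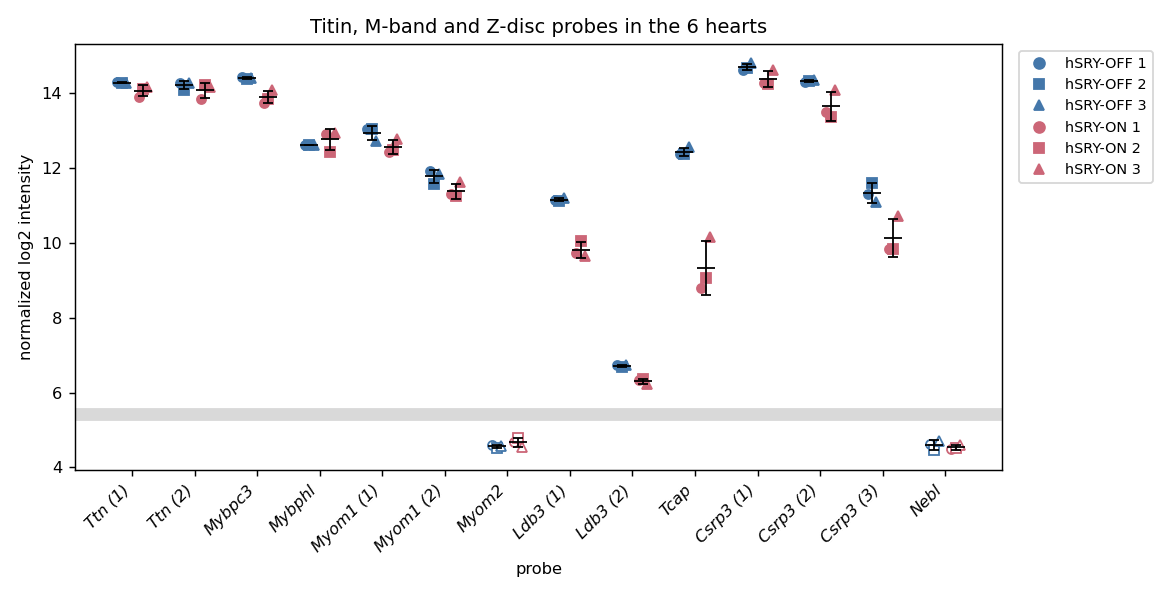
Normalized log2 intensity (vertical axis) of the 14 probes (horizontal axis, probes of a gene numbered in brackets in the order of the text) in 3 hSRY-OFF (blue) and 3 hSRY-ON (red) hearts, with the mean and SD of each group in black. Open symbols are the undetected probes of Myom2 and Nebl, and the grey band is the range over arrays of the lowest signal among detected probes. Tcap and the first Ldb3 probe show the widest gaps between the groups, while both Ttn probes lie close together in all hearts.

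The titin gene itself showed no called change. For Ttn, probe ILMN_2416670 measured 14.30, 14.28 and 14.28 in hSRY-OFF hearts 1, 2 and 3 and 13.91, 14.13 and 14.18 in hSRY-ON hearts 1, 2 and 3, in normalized log2 intensity. The 3 hSRY-ON hearts all lay below the controls, with a gap of 0.09, but the log2 fold change of -0.21 (SE 0.12) was not called (adjusted p = 0.230). The mean of hSRY-ON was 86.3% of the control level, with a 95% interval from 70.9% to 105%. This value moved with the scaling and with 1 heart, to -0.40 (adjusted p = 0.0651) when arrays were scaled to the median of detected probes, -0.50 without normalization and -0.13 without hSRY-ON 1. The other Ttn probe, ILMN_3128792, measured 14.29, 14.09 and 14.29 in hSRY-OFF and 13.86, 14.23 and 14.17 in hSRY-ON hearts. Here the groups overlapped, and the log2 fold change was -0.14 (SE 0.14, adjusted p = 0.511), which became -0.33, -0.43 and -0.02 under the same settings. The 2 Ttn probes moved alike within error, with a difference between their log2 fold changes of -0.08 (SE 0.13, 95% interval -0.38 to 0.23, adjusted p = 0.854). Ttn intensities reached 25199 on arrays whose highest values lay between 43036 and 48079.

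The transcript of the myosin-binding protein C of the thick filament was lower. Mybpc3 (ILMN_2689136) measured 14.44, 14.38 and 14.42 in hSRY-OFF hearts and 13.76, 13.86 and 14.09 in hSRY-ON hearts. The groups did not overlap, and the hSRY-ON hearts were spread more widely than the controls. The log2 fold change was -0.51 (SE 0.13, adjusted p = 0.0229), a mean of 70.2% of the control level (95% interval 57.1% to 86.3%). The call was lost without normalization between arrays, with the replicate number as a block (adjusted p = 0.0515) and when hSRY-OFF 1, hSRY-OFF 2, hSRY-ON 1 or hSRY-ON 2 was left out, with log2 fold changes from -0.61 to -0.43 over the hearts left out.
Mybphl encodes a myosin-binding protein H-like product known from the atria. Its probe (ILMN_2689426) measured 12.61, 12.62 and 12.62 in hSRY-OFF and 12.92, 12.44 and 12.95 in hSRY-ON hearts. Hearts hSRY-ON 1 and hSRY-ON 3 lay above the controls and hSRY-ON 2 below them, and the log2 fold change of 0.15 (SE 0.16, 95% interval -0.22 to 0.52) was not called (adjusted p = 0.512).

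At the M-band, only Myom1 could be measured. Its brighter probe (ILMN_2815138) measured 13.05, 13.04 and 12.72 in hSRY-OFF and 12.44, 12.49 and 12.77 in hSRY-ON hearts. Its dimmer probe (ILMN_2626442) measured 11.92, 11.59 and 11.85 in hSRY-OFF and 11.30, 11.25 and 11.62 in hSRY-ON hearts. In both, heart hSRY-ON 3 reached into the range of the controls. The log2 fold changes were -0.37 (SE 0.15, adjusted p = 0.107) and -0.40 (SE 0.15, adjusted p = 0.0943), and neither was called. Both probes were called down-regulated when the background correction was left out or an intensity trend was fitted, so Myom1 stood close to the threshold.

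The largest difference was that of Tcap, the telethonin gene, with 1 probe (ILMN_2933357). Its normalized log2 intensity was 12.37, 12.39 and 12.57 in hSRY-OFF hearts and 8.81, 9.05 and 10.16 in hSRY-ON hearts. The deposited intensities of these hearts were 6233, 6768 and 4936 in hSRY-OFF and 543, 668 and 1209 in hSRY-ON. The controls lay close together, and the lowest of them was 2.21 log2 units above the highest hSRY-ON heart, hSRY-ON 3. That heart also stood clear of the other 2 hSRY-ON hearts. The log2 fold change was -3.10 (SE 0.32, adjusted p = 0.000748), so that hSRY-ON hearts held 11.7% of the control level (95% interval 6.92% to 19.6%). Of all tested probes, 0.139% had a lower log2 fold change. Leaving out hSRY-ON 3 gave a log2 fold change of -3.51, and the call was kept under all 16 alternative settings.

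Ldb3 was down-regulated in both of its probes, firmly in the bright one and with a size that depended on the background correction in the dim one. The bright probe (ILMN_3136283) measured 11.16, 11.13 and 11.20 in hSRY-OFF hearts and 9.74, 10.05 and 9.66 in hSRY-ON hearts. The dim probe (ILMN_3071312) measured 6.73, 6.67 and 6.74 in hSRY-OFF and 6.34, 6.35 and 6.23 in hSRY-ON hearts, where the lowest signal among detected probes lay between 5.28 and 5.56. Neither probe had overlapping groups, and the hSRY-ON hearts agreed more closely here than for Tcap. The bright probe had a log2 fold change of -1.34 (SE 0.14, adjusted p = 0.000709), which left 39.4% of the control level (95% interval 31.6% to 49.2%), and it was called under all 16 alternatives. The dim probe had a log2 fold change of -0.41 (SE 0.11, adjusted p = 0.0301), and this call was lost under 11 of the 16 alternatives. Its log2 fold change was -0.15 (adjusted p = 0.131) without background correction and -0.30 (adjusted p = 0.0560) with an offset of 50. The dim probe minus the bright probe differed between the groups by 0.94 (SE 0.14, adjusted p = 0.0226), a call made for 1.87% of 4442 such pairs of probes on the array. It was lost under the replicate block and when any heart but hSRY-OFF 3 was left out. Which transcript forms of Ldb3 the probes match is not given in the sources used here, and the nearness of the dim probe to background moves with the smaller change, but its part in the result was not tested.

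Csrp3, the gene of the muscle LIM protein, had 3 probes of different brightness. Probe ILMN_2789650 measured 14.64, 14.69 and 14.81 in hSRY-OFF and 14.27, 14.26 and 14.63 in hSRY-ON hearts. Probe ILMN_2742068 measured 14.32, 14.33 and 14.37 in hSRY-OFF and 13.51, 13.36 and 14.09 in hSRY-ON hearts. Probe ILMN_2789651 measured 11.30, 11.61 and 11.10 in hSRY-OFF and 9.83, 9.83 and 10.72 in hSRY-ON hearts. In all 3 probes the groups stood apart, by only 0.01 in the first, and heart hSRY-ON 3 was the one nearest the controls. The first was not called (-0.33, SE 0.14, adjusted p = 0.130), whereas the second (-0.68, SE 0.19, adjusted p = 0.0341) and the third (-1.21, SE 0.26, adjusted p = 0.0125) were down-regulated. The second lost its call with no probe filter (adjusted p = 0.0555) and when any 1 of hSRY-OFF 1, hSRY-OFF 2, hSRY-OFF 3, hSRY-ON 1 or hSRY-ON 2 was left out, with log2 fold changes from -0.91 to -0.54. The third was called under all 16 alternatives. The difference in log2 fold change between the first and the third probe, 0.88 (SE 0.22, 95% interval 0.38 to 1.38), was not called over all probe pairs (adjusted p = 0.122). It was called at 0.78 without background correction (adjusted p = 0.0122), at 0.86 with an offset of 50 (adjusted p = 0.0423) and at 1.04 without hSRY-OFF 3 (adjusted p = 0.0448), so whether these probes differ depends on the processing. Intensities of the first probe reached 32540 on arrays whose highest values lay between 43036 and 48079. The change was smaller the brighter the probe, and the part of brightness in this was not tested.

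**Figure D2:**
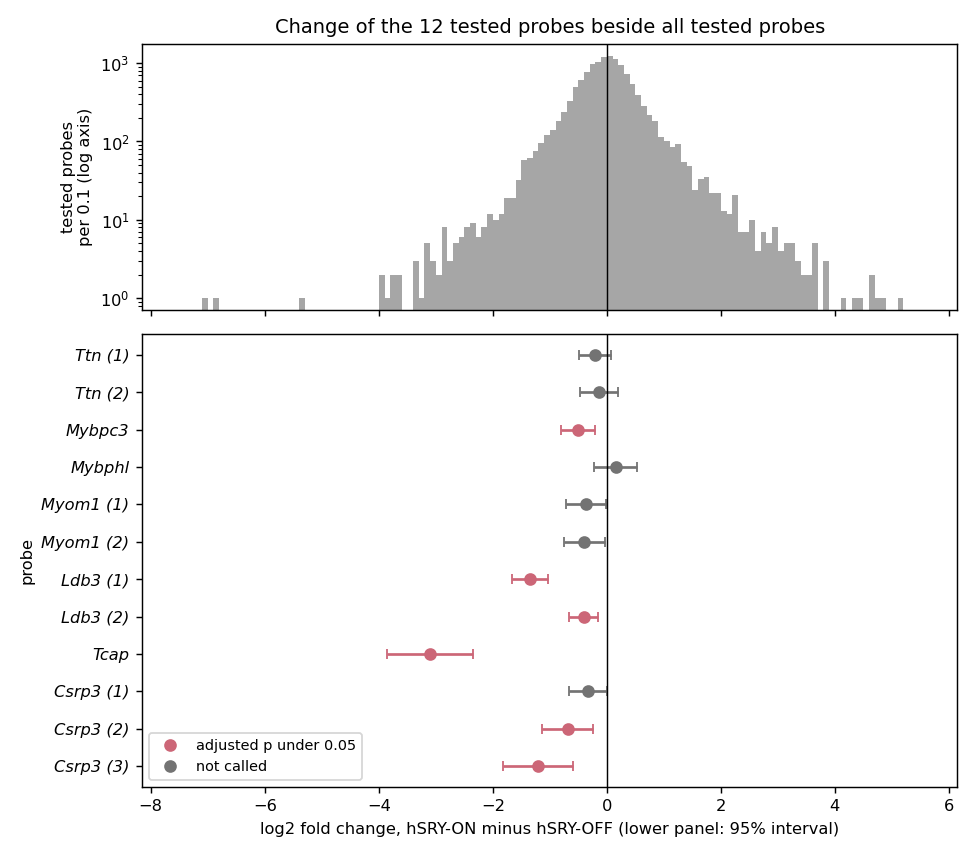
Upper panel, number of tested probes (log axis) at each log2 fold change, hSRY-ON minus hSRY-OFF, for all 12970 probes. Lower panel, the same scale for the 12 tested probes of the sarcomere scaffold with 95% intervals, red where the adjusted p-value was under 0.05. Tcap at -3.10 lies far from the bulk of probes, and the intervals of both Ttn probes, of Mybphl and of the first Csrp3 probe include 0.

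The order of the log2 fold changes, by the brightest probe of each gene, ran from Tcap over Ldb3, Mybpc3, Myom1, Csrp3 and Ttn to Mybphl. The place of Csrp3 turns on the probe, since its other probes, at -0.68 and -1.21, would put it between Ldb3 and Mybpc3. The brightest probes were compared within each heart by an exact permutation test, two-sided, among 21 pairs of genes, in which 3 hearts against 3 cannot give a p-value below 0.1. The log2 fold change of Ldb3 minus that of Tcap was 1.76, with no overlap of the groups (exact p = 0.1, adjusted p = 0.131). Mybpc3 minus Ldb3 (0.83), Ttn minus Mybpc3 (0.30), Mybpc3 minus Csrp3 (-0.19) and Mybpc3 minus Mybphl (-0.66) were also without overlap, at the same p-values. The groups overlapped for Mybpc3 minus Myom1 (-0.14, exact p = 0.2), Myom1 minus Csrp3 (-0.05, exact p = 0.9), Ttn minus Csrp3 (0.11, exact p = 0.5), Ttn minus Myom1 (0.16, exact p = 0.3) and Ttn minus Mybphl (-0.37, exact p = 0.3). Thus Myom1 was not separated from Mybpc3, Csrp3 or Ttn, and no pair passed 0.05, which this design cannot reach.

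Heart hSRY-ON 3 was the highest hSRY-ON heart in 9 of the 12 tested probes and in 4 of the 6 that were called. Over all 1779 down-regulated probes it was the highest in 53.1%. The genes whose pattern over the 6 arrays was most like that of Tcap were Ccng1 (Pearson's r = 0.998), Mlf1 (r = 0.998) and Fsd2 (r = 0.998), with log2 fold changes of -0.60, -2.24 and -1.65, and 196 genes had r over 0.98. For Ttn they were 2310022A10Rik (r = 0.991), BC020535 (r = 0.988) and Col11a2 (r = 0.987), at -0.59, -0.63 and -0.53. These 6 points fall into the 2 groups and share their arrays, so any gene with a clear group difference scores high.

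The other genes of the Z-disc did not move as one. Of 15 measured genes outside the members, 4 were down-regulated and 2 up-regulated, and their median log2 fold change was 0.11, beside 13.9% and 14.9% of all 9660 genes and a median of 0.00. The down-regulated count ran from 3 to 5 over the alternatives, and the up-regulated count from 1 to 3. Trim54, a muscle ubiquitin ligase, was at -1.48 (SE 0.27, adjusted p = 0.00646), and Synpo2 (-0.92), Pdlim5 (-0.88) and Nrap (-0.70) were also lower, though another Pdlim5 probe stood at 0.22. Synpo2 lay near background in the hSRY-ON hearts, at 5.31 to 5.79, and was detected in 2 of them. Pdlim3, which like Ldb3 encodes a PDZ-LIM protein bound to alpha-actinin, was up-regulated at 1.04 (SE 0.14, adjusted p = 0.00173), and Capzb, which caps thin filaments at the Z-disc, at 0.39, with other probes at 0.55 and 0.01. Actn2, the alpha-actinin to which Ldb3 binds, was at 0.13 (adjusted p = 0.475) and Des at 0.10 (adjusted p = 0.528), and neither was called.

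Among partners of titin and of the M-band, Fhl2 and Ankrd23 had the largest changes. Of 9 measured genes, 5 were down-regulated and 3 up-regulated, beside 13.9% and 14.9% of all 9660 genes, and the median was -0.90. Fhl2, a LIM protein bound to the elastic part of titin, had a log2 fold change of -2.98 (SE 0.18, adjusted p = 8.01e-05). Ankrd23, an ankyrin-repeat protein of the same part of titin, was at -2.86 (SE 0.22, adjusted p = 0.000222), while its relative Ankrd1 was up-regulated at 0.44 (SE 0.12, adjusted p = 0.0332) and Ankrd2 was detected on no array. Trim63 (MuRF1), a ubiquitin ligase at the M-band end of titin, was at -1.79, the myosin-binding Lrrc39 (myomasp) of the M-band at -1.74 and Ckm, the muscle creatine kinase found there, at -0.90, all down-regulated. Fhl1 (0.51) and Sqstm1 (0.55) were up-regulated, and Nbr1 was at 0.08 without a call. The 5 down-regulated genes were 5 under all 16 alternatives, whereas the 3 up-regulated ones fell to 0 under some of them.

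**Figure D3:**
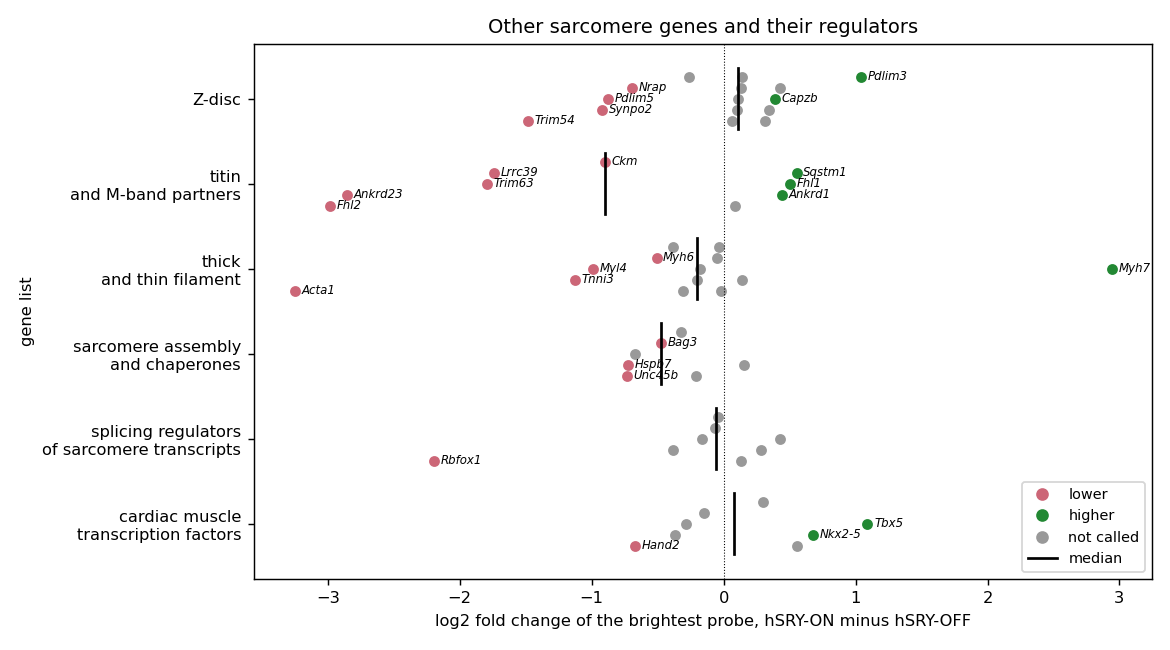
Log2 fold change, hSRY-ON minus hSRY-OFF, of the brightest probe of each measured gene (points) in 6 lists of sarcomere genes and their regulators (rows), with called genes named and the median of each list as a black line. Fhl2, Ankrd23 and Acta1 lie near -3 and Myh7 lies near 3, while most genes of the Z-disc list lie near 0.

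In the thick and thin filaments, 4 of 13 measured genes were down-regulated and 1 up-regulated, with a median of -0.20, beside 13.9% and 14.9% of all 9660 genes. Acta1, the skeletal alpha-actin that the neonatal heart also makes, was at -3.25 (SE 0.28, adjusted p = 0.000389) and Myh7, the beta-myosin heavy chain, at 2.94 (SE 0.18, adjusted p = 8.25e-05). Tnni3 (-1.13), Myl4 (-0.99) and Myh6 (-0.51, with another probe at -1.97) were down-regulated. The ventricular light chains Myl2 and Myl3 lay at 15.29 to 15.42, where the highest normalized value of any array was 15.49, so their probes could show little change. Of 7 chaperones and assembly factors, Unc45b (-0.74, adjusted p = 0.0492, with another probe at -0.17), Hspb7 (-0.73) and Bag3 (-0.47) were down-regulated and 0 were up-regulated, with a median of -0.47, beside the 13.9% lower among all genes. That count fell to 0 without hSRY-OFF 1, hSRY-OFF 2 or hSRY-ON 1, and to 1 without hSRY-ON 2 or hSRY-ON 3. Among 8 regulators of splicing in sarcomere transcripts, Rbfox1, listed on the array under its older symbol A2bp1, was down-regulated at -2.20 (SE 0.25, adjusted p = 0.00108) and the other 7 were not called. Among 8 cardiac transcription factors, Tbx5 (1.09) and Nkx2-5 (0.68) were up-regulated and Hand2 (-0.67) was down-regulated. Leaving out hSRY-OFF 1, hSRY-OFF 2, hSRY-ON 1 or hSRY-ON 2 left 1 factor up-regulated and 0 down-regulated, and left 2 genes of the thick and thin filaments down-regulated. Of the MEF2, SRF and GATA families, whose motifs are given above, the measured members on this list were not called, with Mef2c at -0.29, Mef2d at 0.55, Srf at -0.15 and Gata4 at -0.37.

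Markers of cell types were read beside these results, where 13.9% of all 9660 genes were lower and 14.9% higher. All 10 cardiomyocyte markers on the array were detected, 4 lower and 1 higher in hSRY-ON, and the log2 of their summed level ran from 17.64 to 17.72 in controls and from 17.53 to 17.62 in hSRY-ON hearts, a sum in which Myl2 and Myl3 near the top of the range weigh heavily. Of 5 ventricular markers, Irx4 (-2.01) and Hey2 (-0.79) were lower and Myh7 was higher. The 6 atrial markers (1 lower, 1 higher) had sums from 16.52 to 16.55 in controls and from 16.16 to 16.56 in hSRY-ON hearts, where hSRY-ON 3 was highest. Nppa weighs most in this sum and lay near the top of the range, at 15.25 to 15.42. Of 14 skeletal muscle markers on the array, 7 could be tested, 5 lower and 1 higher. Their sum, in which Myl1 weighs most, ran from 12.997 to 13.19 in controls and from 10.44 to 11.35 in hSRY-ON hearts, again with hSRY-ON 3 highest. This sum moves with Tcap and Csrp3, which skeletal muscle also makes, and its part in their change was not tested. Lower were Myl1 (-2.66), Tnni2 (-1.91), Myh8 (-1.42, with another probe at -0.41 not called), Myog (-0.56) and Pvalb. In hSRY-ON hearts Pvalb was not well above background. Myog lay near background in these hearts, at 5.27 to 5.57, and was detected in 2 of them. Actn3, not well above background in controls, was higher, and Mylpf (0.38) was not called, though all its hSRY-ON values lay above the controls. Myh1, Myh2, Myh4, Tnnt3 and Myod1 were detected on none of the 6 arrays. Macrophage markers (2 of 4 higher, Cd68 and Lyz2) had sums from 10.90 to 11.47 in controls and from 12.19 to 12.23 in hSRY-ON hearts. Lyz2 weighs most in this sum, and Adgre1 (-0.21) and the brighter Csf1r probe (0.40, SE 0.33) were not called. The other Csf1r probe, of nearly equal brightness, was higher at 1.30 (SE 0.14, adjusted p = 0.000886). Smooth muscle markers (2 of 3 higher, Acta2 and Tagln) had sums from 14.63 to 14.91 and from 15.24 to 15.38. Acta2 weighs most there, while Myh11 (-0.42) was not called, though all its hSRY-ON values lay below the controls. Adipocyte markers (2 of 4 higher, Ucp1 and Adipoq) had sums from 10.87 to 11.37 and from 10.11 to 11.84. Cidea, the brightest on average, was at -1.05 without a call (adjusted p = 0.0691), with all hSRY-ON hearts below all controls. The groups overlapped for Ucp1, which was detected in 1 control. Of 5 erythroid markers, Hbb-b1 (-1.29) was lower and 0 were higher, with sums from 15.58 to 15.90 and from 15.63 to 15.76. Hba-a1 weighs most in this sum and lay at 15.39 to 15.49, the top of the range. Its probe and the sum could therefore show little change. Among 7 tested fibroblast markers, 0 were lower and 1 was higher, and among 5 tested endothelial markers 2 were lower and 1 was higher. The part of these cell types in the changes was not tested.

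**Figure D4:**
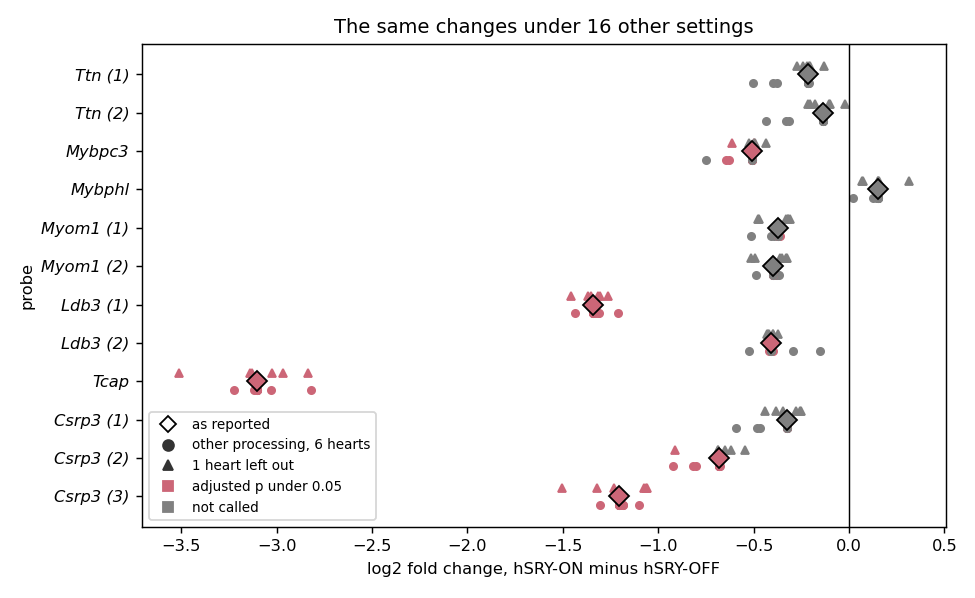
Log2 fold change, hSRY-ON minus hSRY-OFF, of the 12 tested probes (rows) as reported (diamonds), under other processing of all 6 hearts (circles) and with 1 heart left out (triangles), red where the adjusted p-value was under 0.05. Tcap, the bright Ldb3 probe and the third Csrp3 probe are red throughout, and no Ttn or Mybphl value is.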

How the data were processed

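Hearts were grouped by the sample labels, which name hSRY-ON and hSRY-OFF and number the replicates, and the paper calls them biological triplicates. The authors extracted RNA with TRIzol, ran it on MouseRef-8 BeadChips and deposited bead intensities that had not been normalized. Beside each intensity the authors deposited its detection p-value against negative-control beads. The paper names the R package TCC without its settings, and the submitters' processing notes name limma without a version. Chip and scan identities are not given in the sources used here, so no batch could be tested.

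With R 4.3.3 and limma 3.58.1, intensities were background corrected by the normal-exponential model with negative controls inferred from the detection p-values, given an offset of 16, quantile normalized and taken to log2. Probes with a detection p-value under 0.05 on at least 3 of 6 arrays were tested (12970 probes of 9660 genes) with lmFit and eBayes, the group being the only term, with the Benjamini-Hochberg adjustment of two-sided p-values across these probes. Differences between probes of a gene were fitted in the same way over all 4442 pairs. A gene of a list is given by its brightest probe, and a list's summed level is the log2 of the summed linear values of its tested genes. The members and lists were chosen with earlier results of these data known. Named genes are the 9 members, the genes of the lists, and the 3 genes most correlated with Tcap and with Ttn. Promoter sequences are from RefSeq, and Python 3.11.15 with matplotlib 3.10.9 drew the plots.

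Between 12138 and 13172 probes (47.2% to 51.3%) were detected on each array, and arrays correlated across probes at 0.983 to 0.992 within a group and at 0.940 to 0.960 between groups. No pair of arrays held identical values. The number of arrays limits the precision. On simulated data of the hSRY-ON against hSRY-OFF comparison with 13001 tested probes, 59 of 100 probes changed by 1 log2 unit and 92 of 100 changed by 2 were recovered with the right sign, at a median fitted over true change of 0.940 and 0.932, beside 7 false calls. Only these probes were changed in the simulation, a far smaller share than the 27.5% called in the data. The adjusted p-value depends on that share, so this recovery does not measure the power of the real comparison. Alternatives were no background correction, an offset of 50, no normalization, 2 median scalings, other probe filters, an intensity trend, a replicate block, and each heart left out.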

Additional observations from a re-analysis of the deposited data

How the results depend on the processing

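The calls of Tcap (log2 fold change -3.22 to -2.82 over all hearts, -3.51 to -2.83 with a heart left out), the bright Ldb3 probe (-1.44 to -1.21, and -1.46 to -1.26) and the third Csrp3 probe (-1.31 to -1.10, and -1.50 to -1.06) were kept under all 16 alternatives, and both Ttn probes and Mybphl were not called under any. The count of called member probes, 6 as reported, was 4 to 8 over the alternatives with all hearts and 3 to 5 with a heart left out, at 3 without hSRY-OFF 1, hSRY-OFF 2, hSRY-ON 1 or hSRY-ON 2. The count of all called probes, 3567 as reported, was 1897 without normalization between arrays, which moved the median of all tested probes to -0.12, and 2206 to 3669 with a heart left out. The count of probe pairs of a gene that changed unequally, 83 as reported, was 311 without background correction, 153 with an offset of 50, 372 with no probe filter, 53 with detection on all arrays, and 10 to 182 with a heart left out. The difference between the Myom1 probes, -0.03 as reported, was 0.026 without normalization and with both median scalings, and -0.17 to 0.12 with a heart left out; no value of it was called. Deviations from the group means correlated at -0.02, 0.04 and -0.07 between hearts of equal replicate number, and at -0.06 to 0.09 between hearts of unequal number. These values show no likeness by replicate number, but they cannot show whether the hearts were paired. With the replicate number as a block, 2842 probes, 4 member probes and 26 probe pairs were called. The causes of these shifts were not tested. Signal over background limits Myom2 and Nebl, which lay at background, and the dim Ldb3 probe, which lay near it.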
